A study of Homo sapiens with 8 samples.

Results

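The genes described here are 44 genes of mitosis and the spindle, chosen by name from the 26902 genes and RNAs of the table: kinesin motors, spindle microtubule-associated proteins, kinetochore and checkpoint proteins, mitotic kinases with the chromosomal passenger complex, cyclins with CDK1 and the partners of the anaphase-promoting complex, proteins of chromosome structure, and cytokinesis proteins. All 44 were present in the table under these symbols and matched a RefSeq gene. They were measured in U2OS, an established human osteosarcoma cell line, by sequencing input RNA depleted of ribosomal RNA and the fragments that ribosomes protect (footprints, 17 to 34 nt). The 4 groups were QKI7 footprint, vector footprint, QKI7 input and vector input, with 2 libraries each. QKI7 cells overexpressed the QKI7 isoform of QKI, an RNA-binding protein, and vector cells carried the empty vector. Every culture, the vector cells included, had been exposed to 0.5 mM sodium arsenite, an oxidative stressor that blocks translation initiation, for 1 h before harvest; cells without arsenite were not analysed here. The labels state neither whether the QKI7 line was a clone or a pool nor whether replicate libraries were separate cultures. Each p-value therefore sets a difference against a spread between replicate libraries that may be technical only.

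QKI itself was at 1749 and 1580 in QKI7 inputs and at 3.01 and 3.45 in vector inputs, in TPM (length-corrected transcript shares, scaled to a fixed sum), so the libraries carried the construct that their labels name. The 24272 entries that were not spike-ins, histones or small RNA, which include long non-coding RNA, held a small part of TPM. Their share was 4.92% and 4.61% in QKI7 inputs, 4.02% and 4.31% in vector inputs, and 0.686% to 0.703% in the 4 footprint libraries. A share of TPM is not a share of reads. Levels below are therefore rescaled TPM, in which these entries sum to 1e+06 in each library, and a step of the 2-decimal deposited values is worth 1.42 to 1.46 rescaled TPM in footprints and 0.203 to 0.249 in inputs. VIM and COL1A1, both of the mesenchymal list, stood at 74.6 to 102 and 17.8 to 24.1 deposited TPM in the inputs. Of the same list, the collagen gene COL1A2 was at most 0.07 and RUNX2 was at 0.27 to 0.72 in the inputs. The list's other genes were at 1.51 or more there. None of the 6 blood cell and 5 epithelial markers passed 0.57. Whether counting used strand is not stated in the sources, so reads of overlapping genes on opposite strands cannot be told apart.

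As cells enter mitosis, CDK1 bound to its cyclins phosphorylates its targets, condensin compacts the chromosomes, and kinesins and microtubule-associated proteins build the spindle. Kinetochores hold chromosomes to microtubules, and the spindle checkpoint restrains the anaphase-promoting complex until all are attached. The complex with its activator CDC20 then marks cyclin B and securin for destruction. Many of these genes are transcribed late in the cell cycle, from promoters with a cell cycle genes homology region (CHR), read by the DREAM and MuvB complexes, and CCAAT boxes bound by NF-Y.

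The promoters were searched for these motifs as a description only, and a link to the RNA changes below was not tested. RefSeq promoters (build GRCh38.p14, 250 bases before to 50 after each start) were listed for 38 of the 44 genes, with 43 promoters in all. UBE2C, BUB3, TTK, AURKA, TPX2 and BIRC5 had none in the table. A CHR, searched as TTTGAA or TTTAAA on both strands, was found in 36 of the 43 promoters (83.7%), compared with 24.0% of all 35116 promoters and 20.2% of those of protein-coding genes. The letters CCAAT, on both strands, were in 30 of the 43 (69.8%), compared with 34.6% and 34.7%. Both motifs were present in 26 (60.5%), compared with 9.27% and 7.98%. TTTAAA reads the same on both strands, the 2 motifs can share no more than an end base, and a match describes the sequence and is not evidence of binding.

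The promoters of 4 genes that the results turn on are shown, 5′ to 3′ on the gene's strand with both motifs in capitals (TTCAAA and ATTGG are the opposite-strand readings). CDC20 (chr1:43358731-43359030, plus strand) had the largest fall in RNA among the 44 genes, ASPM (chr1:197146620-197146919, minus strand) the largest rise among those with a promoter in the table, NUF2 (chr1:163321704-163322003, plus strand) the one change in translation efficiency, and CCNB1 (chr5:69166900-69167199, plus strand) the highest mean footprint level over the 4 libraries.
CDC20: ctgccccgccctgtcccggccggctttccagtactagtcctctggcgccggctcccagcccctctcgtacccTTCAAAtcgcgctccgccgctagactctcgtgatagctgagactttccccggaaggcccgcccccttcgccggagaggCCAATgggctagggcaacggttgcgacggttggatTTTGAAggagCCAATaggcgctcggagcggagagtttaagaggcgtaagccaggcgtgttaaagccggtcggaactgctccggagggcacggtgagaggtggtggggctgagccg
ASPM: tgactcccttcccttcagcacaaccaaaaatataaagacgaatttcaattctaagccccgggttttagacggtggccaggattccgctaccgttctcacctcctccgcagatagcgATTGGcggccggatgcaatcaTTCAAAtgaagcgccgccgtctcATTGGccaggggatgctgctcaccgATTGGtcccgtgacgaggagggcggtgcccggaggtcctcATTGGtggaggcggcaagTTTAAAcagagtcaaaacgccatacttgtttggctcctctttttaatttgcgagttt
NUF2: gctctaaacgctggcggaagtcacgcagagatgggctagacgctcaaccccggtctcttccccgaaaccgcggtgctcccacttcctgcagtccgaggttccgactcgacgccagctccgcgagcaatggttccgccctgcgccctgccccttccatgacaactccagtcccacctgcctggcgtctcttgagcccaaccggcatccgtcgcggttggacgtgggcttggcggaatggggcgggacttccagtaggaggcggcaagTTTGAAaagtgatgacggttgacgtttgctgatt
CCNB1: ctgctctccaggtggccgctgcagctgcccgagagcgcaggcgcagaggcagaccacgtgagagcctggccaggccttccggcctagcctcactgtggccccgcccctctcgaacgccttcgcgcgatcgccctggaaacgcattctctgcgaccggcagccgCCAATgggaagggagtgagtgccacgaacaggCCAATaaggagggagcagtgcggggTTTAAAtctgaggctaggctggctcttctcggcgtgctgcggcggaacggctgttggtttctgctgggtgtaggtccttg
CDC20 and ASPM each carry 2 CHR matches and CCNB1 carries 1, at 30 bases before its start. CCAAT boxes number 4 in ASPM, 2 in CDC20 and 2 in CCNB1. The NUF2 window holds a CHR 16 bases after the start and no CCAAT. The gene whose RNA fell most and the one with the largest listed rise thus hold the same kinds of motif.

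In input RNA, QKI7 cells had more RNA of most of these genes than vector cells. The 44 genes together made up 0.978% and 0.953% of the rescaled total in the QKI7 inputs, against 0.825% and 0.851% in the vector inputs. Of the 43 genes averaging 1 deposited TPM or more in the inputs, 24 rose and 4 fell at an adjusted p under 0.05 (limma), while 11.3% of all 7795 entries tested rose and 10.9% fell. The median log2 change was 0.28 over the 43 genes and 0.04 over all entries. Both QKI7 inputs lay above both vector inputs for 33 of the 43 genes and below them for 5, compared with 37.7% and 26.9% of all entries. In these bulk cultures, more cells in mitosis and more RNA per cell cannot be told apart.

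**Figure D1:**
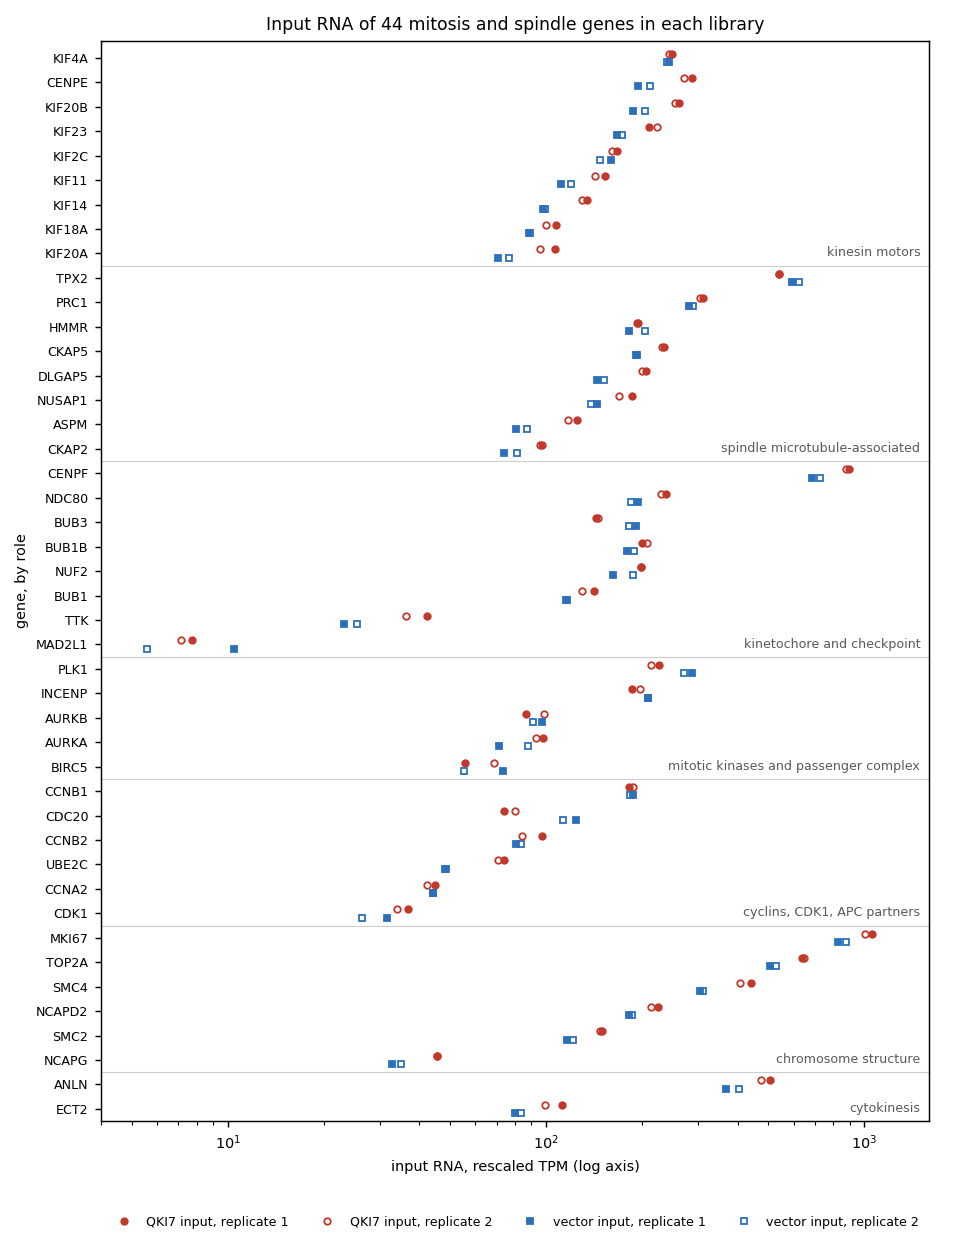
Input RNA of all 44 genes in each library, in rescaled TPM on a log axis, ordered by role; circles are the QKI7 inputs and squares the vector inputs, filled for replicate 1 and open for replicate 2. Circles lie right of the squares for most kinesins, chromosome structure and cytokinesis genes, and left of them for CDC20, PLK1, BUB3, TPX2 and INCENP.

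Chromosome structure genes rose as a whole, 6 of 6. MKI67, which coats mitotic chromosomes and had the highest RNA of the 44 genes, was at 1058 and 1008 rescaled TPM in QKI7 inputs, against 829 and 877 in vector inputs (log2 change 0.28 ± 0.04 SE, adjusted p = 0.0080). SMC4, an ATPase core subunit of condensin, was at 442 and 408, against 305 and 311 (0.46 ± 0.05, adjusted p = 0.0025). The QKI7 and vector libraries did not overlap for either gene. The other condensin genes rose by log2 0.33 (SMC2), 0.41 (NCAPG) and 0.25 (NCAPD2), and TOP2A, the topoisomerase that untangles sister chromatids, by 0.31. Without QKI7 input 1 the calls of MKI67, SMC2, NCAPG and NCAPD2 were lost (adjusted p = 0.0522 to 0.140), which left 2 of 6. NCAPG missed the threshold without any one library (0.0529 to 0.140), SMC2 also without QKI7 input 2 (0.0532), and NCAPD2 also without QKI7 input 2 or vector input 1 (0.0514 and 0.0546). Summed over the 6 genes, the level was 2558 and 2470 rescaled TPM in QKI7 inputs and 1971 and 2060 in vector inputs.

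Among the kinesin motors, 6 of 9 rose and none fell, and at an unadjusted p under 0.05 limma gave 7 higher and 0 lower, compared with 21.2% and 16.9% of all entries. KIF4A, a chromosome-bound kinesin whose mean RNA over the 4 inputs was the highest of the group, was at 248 and 244 rescaled TPM in QKI7 inputs and 243 and 241 in vector inputs, a log2 difference of 0.03 ± 0.04 (SE) that did not pass (adjusted p = 0.715). CENPE, which moves chromosomes to the spindle equator, was at 287 and 271 in QKI7 inputs, above KIF4A there, against 195 and 212 in vector inputs. KIF20A, needed in cytokinesis, and CENPE had the largest changes of the group, 0.46 and 0.45. KIF14 (0.42), KIF20B (0.39), KIF11, which pushes the spindle poles apart (0.36), and KIF23 of the central spindle (0.35) also rose. KIF18A (0.22) and KIF2C (0.09) did not pass.

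The spindle microtubule-associated genes gave 5 that rose and 1 that fell, of 8. ASPM, which focuses spindle poles, was at 125 and 118 rescaled TPM in QKI7 inputs, against 80.7 and 87.0 in vector inputs (0.53 ± 0.07 SE, adjusted p = 0.0047). DLGAP5, a stabiliser of kinetochore fibres, was at 207 and 201, against 144 and 152 (0.46 ± 0.05, adjusted p = 0.0033). Neither gene's groups overlapped. TPX2, which activates Aurora A on the spindle and had the most RNA of the group, was at 542 and 541 in QKI7 inputs, against 591 and 625 in vector inputs (-0.17 ± 0.04, adjusted p = 0.0341). CKAP5, CKAP2 and NUSAP1 rose by 0.28, 0.32 and 0.33, while PRC1 (0.11) and HMMR (0.01) did not pass.

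Kinetochore and checkpoint genes went both ways, with 4 that rose and 1 that fell, of 7 tested. TTK, the kinase that starts checkpoint signalling, had the largest change of the 43 genes, with 42.3 and 36.4 rescaled TPM in QKI7 inputs, against 23.2 and 25.5 in vector inputs (0.67 ± 0.13 SE, adjusted p = 0.0143). CENPF, a large kinetochore protein with the most RNA of the group, was at 895 and 877, against 686 and 724 (0.33 ± 0.04, adjusted p = 0.0036). Both genes were higher in each QKI7 library than in each vector library. BUB3, which brings the checkpoint kinases to the kinetochore, was lower, at 144 and 146 in QKI7 inputs, against 192 and 182 in vector inputs (-0.37 ± 0.06, adjusted p = 0.0064). NDC80 rose by 0.30 and BUB1 by 0.22, whose adjusted p of 0.0499 was just under the threshold and over it without any one library (0.0799 to 0.264); BUB1B (0.14) and NUF2 (0.19) did not pass. MAD2L1, the checkpoint inhibitor, was below the minimum for the test, at 7.72 and 7.15 in QKI7 inputs and 10.5 and 5.56 in vector inputs, and its groups overlapped.

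The mitotic kinases and passenger genes gave no rise and 1 fall, of 5, with 1 gene higher (AURKA) and 1 lower at an unadjusted p under 0.05 in limma. PLK1, a kinase of mitotic entry and spindle assembly, was at 226 and 214 rescaled TPM in QKI7 inputs, against 288 and 271 in vector inputs (-0.34 ± 0.05 SE, adjusted p = 0.0073). AURKA had a difference of 0.27 (adjusted p = 0.111), and the passenger complex members AURKB, INCENP and BIRC5 had -0.03, -0.12 and -0.05, none of which passed.

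The cyclin and anaphase-promoting complex group held the largest fall and one of the largest rises. CDC20, the activator of the complex, was at 73.8 and 80.0 rescaled TPM in QKI7 inputs, against 125 and 113 in vector inputs (-0.62 ± 0.08 SE, adjusted p = 0.0040). UBE2C, the ubiquitin-conjugating enzyme that works with the complex, was at 74.0 and 70.9, against 48.1 and 48.5 (0.58 ± 0.08, adjusted p = 0.0049). CCNB1, cyclin B1, was at 182 and 188 in QKI7 inputs and 188 and 184 in vector inputs, with overlapping groups (-0.01, adjusted p = 0.943). CCNA2 (-0.02), CCNB2 (0.13) and CDK1 (0.28) did not pass. The group's summed RNA was 509 and 499 in QKI7 inputs and 517 and 499 in vector inputs.

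Both cytokinesis genes rose. ANLN, the anillin scaffold of the contractile ring, was at 505 and 474 rescaled TPM in QKI7 inputs, against 369 and 403 in vector inputs (0.34 ± 0.06 SE, adjusted p = 0.0094), and ECT2 rose by 0.37. Neither passed without QKI7 input 1 (adjusted p = 0.0578 for ANLN and 0.133 for ECT2), and ECT2 missed the threshold without vector input 1 as well (0.0676).

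The input calls rested in part on QKI7 input 1. Without it 10 of the 43 genes rose and 3 fell (2.81% and 5.63% of all entries), and 15 of the 28 calls were lost: besides the chromosome structure and cytokinesis genes named above these were TTK, BUB1, NDC80, KIF11, KIF20A, TPX2, NUSAP1, CKAP2 and CKAP5 (adjusted p = 0.0674 to 0.264). TPX2 missed the threshold without QKI7 input 2 or vector input 2 as well (0.122 and 0.108), CKAP2 without QKI7 input 2 or vector input 1 (0.101 and 0.0833), and NUSAP1 without vector input 2 (0.051). Without the variance trend 15 rose and 3 fell (7.21% and 6.26%). On deposited TPM, where the median change of all 8067 entries was 0.16, 31 genes rose and 1 fell (29% and 3.45% of all entries), BUB3 and PLK1 missed the threshold and TPX2 turned to 0.03 (adjusted p = 0.849), and in a fit of all 8 libraries, whose spread includes that of the footprints, 2 rose and 1 fell of 36 (0.969% and 7.86%).

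In ribosome footprints, few of the genes passed the test, and in both directions. Their summed share was 0.327% and 0.340% of the rescaled total in QKI7 footprints, against 0.364% and 0.354% in vector footprints. Of the 36 genes averaging 0.2 deposited TPM or more in footprints as well as 1 in inputs, 3 rose and 5 fell (limma), while 13.7% of all 2786 entries tested rose and 21.1% fell. The median log2 change was 0.01 over the 36 genes and -0.13 over all entries. These values depend on the total: with the genes QKI and RELN removed before rescaling, the medians were 0.14 and -0.01. In that fit 8 of the 36 genes rose and 3 fell, while 487 of all 2785 entries rose and 362 fell (limma). The summed shares were not recomputed on that total. Both QKI7 footprint libraries lay above both vector ones for 10 of the 36 genes and below them for 8, compared with 22.9% and 39.6% of all entries.

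The largest footprint falls were in 2 kinetochore genes. BUB3 was at 119 and 163 rescaled TPM in QKI7 footprints, against 270 and 229 in vector footprints (-0.83 ± 0.15 SE, adjusted p = 0.0049). NUF2, a subunit of the NDC80 complex that grips microtubules, was at 56.8 and 53.3, against 81.5 and 93.9 (-0.66 ± 0.12, adjusted p = 0.0056). Both QKI7 libraries were below both vector libraries for each gene. NDC80, the partner of NUF2 in the complex, was at 175 and 172 in QKI7 footprints and 160 and 178 in vector footprints, with overlapping groups (0.04, adjusted p = 0.784).

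Both B-type cyclins were lower in footprints. CCNB1 was at 214 and 235 rescaled TPM in QKI7 footprints, against 279 and 310 in vector footprints (-0.39 ± 0.09 SE, adjusted p = 0.0144). CCNB2 was at 74.3 and 90.8, against 123 and 120 (-0.56 ± 0.14, adjusted p = 0.0179). The groups did not overlap for either. All 6 genes of the cyclin and anaphase-promoting complex group had negative differences, -0.47 to -0.21 for the 4 that did not pass and a median of -0.37 over the 6, while 39.2% of all entries had a positive one, and their summed footprints were 696 and 839 in QKI7 cells, against 1037 and 932 in vector cells.

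TPX2 was the remaining fall, at 71.4 and 80.7 rescaled TPM in QKI7 footprints, against 93.0 and 93.9 in vector footprints (-0.30 ± 0.09 SE, adjusted p = 0.0368). The 3 that rose lay close to the threshold. PRC1, which bundles antiparallel microtubules in the midzone, was at 59.7 and 53.3, against 47.2 and 37.0 (0.42 ± 0.14, adjusted p = 0.0423). TOP2A was at 133 and 130, against 98.7 and 114 (0.30 ± 0.09, adjusted p = 0.0331). KIF2C, a kinesin that takes microtubules apart, was at 243 and 257, against 203 and 211 (0.27 ± 0.09, adjusted p = 0.0478). None of these 4 genes had overlapping groups. Kinesins as a group summed to 561 and 556 in QKI7 footprints, against 485 and 481 in vector footprints.

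**Figure D2:**
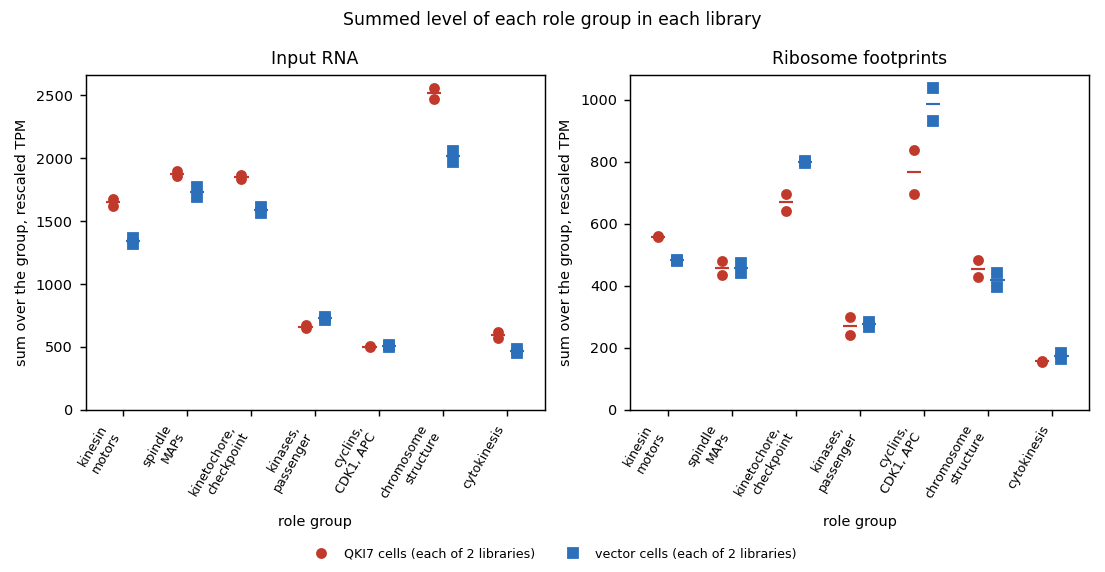
Summed level of each role group in each library, in rescaled TPM, for input RNA (left) and footprints (right); circles are QKI7 libraries, squares vector libraries, and short bars the means of 2. In inputs, kinesin, spindle, kinetochore, chromosome structure and cytokinesis sums are higher in both QKI7 libraries, the mitotic kinase sum is lower and the cyclin sums overlap. In footprints the kinesin sum is higher in QKI7 cells, the kinetochore, cyclin and cytokinesis sums are lower, and the others overlap. The sums were not recomputed with QKI and RELN removed before rescaling, which moved the median footprint change of all entries from -0.13 to -0.01. A sum need not follow most of its genes: 4 of the 7 kinetochore genes tested had a positive footprint change (median log2 0.04), compared with 39.2% of all entries.

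These footprint calls depended on how the spread was estimated. The fit shares 1 spread between inputs and footprints, whose replicates differed by a median of 0.083 and 0.0957 (log2) in inputs and 0.213 and 0.205 in footprints; with a spread of its own for each library type only BUB3 and NUF2 passed (adjusted p = 0.0168 and 0.0468; 7.61% of all entries rose and 7.68% fell), and in a fit of the 4 footprint libraries alone BUB3 (0.0228) and not NUF2 (0.0562; 5.85% and 12.3%). Without any one input library 4 genes fell and none rose (BUB3, NUF2, CCNB1 and CCNB2), while 16.3%, 16.4%, 16.7% and 16.7% of all entries fell and 10.4%, 10.4%, 10.5% and 10.7% rose in these 4 fits. Without vector footprint 1, 2 rose and 3 fell (13.9% and 16.4% of all entries). KIF2C passed in 0 of the 8 fits that left out a library, TOP2A and TPX2 in 1 of 8 and PRC1 in 2 of 8. CCNB1 also missed the threshold without vector footprint 2 (adjusted p = 0.0501) and CCNB2 without QKI7 footprint 1 or vector footprint 1 (0.0592 and 0.0530). Scaling by the median of ratios moved the median of all entries to -0.01 and the split to 8 that rose and 3 that fell, with 17.6% and 13.3% of all entries.

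Translation efficiency, the change of footprints less the change of RNA in the same fit, was below 0 for most of the genes. Of 36, 8 had a positive difference, compared with 49.6% of all entries, and the median was -0.25, compared with -0.0039 over all 2786 entries. A single gene passed, NUF2, with a log2 difference of -0.85 ± 0.18 (SE, adjusted p = 0.0194), while 3.77% of all entries fell and 8.11% rose. NUF2 RNA was 199 and 199 rescaled TPM in QKI7 inputs and 163 and 188 in vector inputs, a difference of 0.19 that did not pass (adjusted p = 0.115, limma). Each QKI7 library thus had more NUF2 RNA and fewer NUF2 footprints than each vector library. Of all entries, 37.7% had the same order in inputs and 39.6% in footprints. None of the genes rose in translation efficiency, and at an unadjusted p under 0.05 limma gave 0 higher and 8 lower, compared with 16.8% and 13% of all entries. On deposited TPM, which keeps small RNA in the total and in which both minimums gave way to an average of 1 TPM across all 8 libraries, 25 of 41 genes were lower and none higher, while 21.6% of all 5806 entries were lower and their median was -0.16. Most of these genes had footprints under 1 TPM on that scale, below the 1 added to each value before the log2. Their median footprint change was 0.0048 there, against 0.01 in the fit reported, and their median input RNA change 0.40, against 0.28. Why more genes were called lower on that scale was not tested.

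UBE2C, ANLN and CCNB2 came closest to the threshold among the others. UBE2C, with 140 and 180 rescaled TPM in QKI7 footprints and 240 and 171 in vector footprints, had -0.93 ± 0.26 (SE, adjusted p = 0.0565). Its footprints overlapped between the groups, while its RNA did not. CCNB2 had -0.69 (adjusted p = 0.0591), and ANLN, at 118 and 104 in QKI7 footprints and 120 and 138 in vector footprints, had -0.56 (adjusted p = 0.0528). On the positive side the 3 largest were AURKB (0.44), CDC20 (0.41) and HMMR (0.37), with adjusted p between 0.212 and 0.388. With a spread for each library type UBE2C passed (adjusted p = 0.0371). NUF2 missed the threshold without QKI7 input 1, QKI7 input 2 or vector input 1 (adjusted p = 0.0919, 0.0866 and 0.0980), and 3 genes fell without QKI7 footprint 1 (5% of all entries), 2 without vector footprint 1 (3.73%) and 4 without QKI7 footprint 2 or vector footprint 2 (6.34% and 4.5%).

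**Figure D3:**
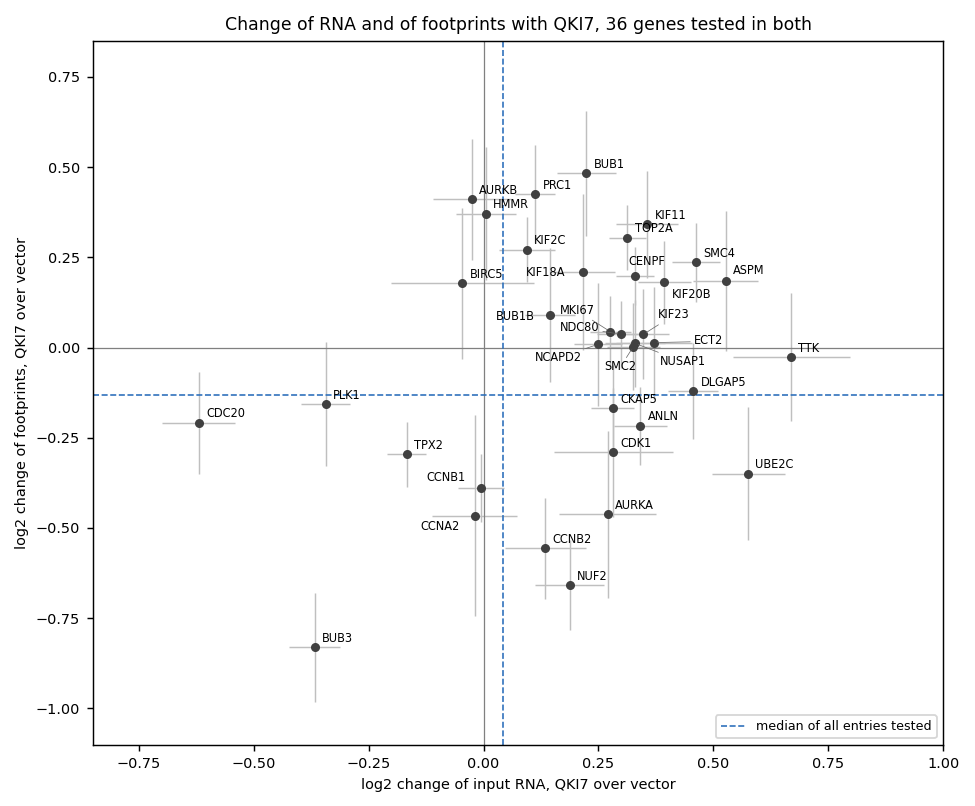
Log2 change of input RNA (x axis) and of footprints (y axis), QKI7 over vector, for the 36 genes tested in both, with limma standard errors as bars; dashed lines are the medians of all entries tested, 0.04 and -0.13. Most genes lie right of the vertical line, BUB3, NUF2 and the B-type cyclins lie low, and CDC20 lies far left.

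Footprint levels were also set against RNA levels within each construct, which shows how much of the footprint pool a gene held for its share of RNA. Most of the genes held less. In QKI7 cells 6 of the 36 were higher in footprints than in inputs and 25 were lower (limma), compared with 29.2% and 46.7% of all entries, and in vector cells 8 were higher and 22 lower, compared with 32.2% and 46.2%. The median log2 difference was -1.41 in QKI7 cells and -1.25 in vector cells, while over all entries it was -0.36 and -0.33. This split depended on the genes tested and on the scale. With a minimum of 2 TPM in inputs and 0.5 in footprints 14 genes were left, of which 4 were higher and 7 lower in QKI7 cells (median -0.40), compared with 48.1% and 35.1% of all 1062 entries. In vector cells 6 of the 14 were higher and 4 lower (median 0.10), compared with 49.8% and 33.9%. A footprint minimum removes genes low in footprints, so a stricter one favours higher differences by its design. The medians of all entries under it were 0.27 in QKI7 cells and 0.34 in vector cells. On deposited TPM, with its own minimum as above, none of the 41 genes tested was higher in either construct (limma), while 7.42% of all entries were in QKI7 cells and 7.7% in vector cells.

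Of the 36 genes tested, CDK1 and UBE2C were furthest above their RNA in both constructs (folds are on the log2(value + 1) scale). CDK1 was at 105 and 141 rescaled TPM in QKI7 footprints against 36.8 and 34.0 in QKI7 inputs, 3.37-fold higher (log2 1.75 ± 0.18 SE, adjusted p = 2.45e-05). In vector cells it was at 153 and 145 in footprints against 31.6 and 26.4 in inputs, 5.02-fold higher (adjusted p = 3.4e-06). UBE2C was 2.18-fold higher in QKI7 footprints than in QKI7 inputs and 4.13-fold higher in vector footprints than in vector inputs (adjusted p = 0.000517 and 9.63e-06). For both genes each footprint library was above each input library of its construct, and how many of all entries did so was not counted.

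TTK was at 56.8 and 56.2 rescaled TPM in QKI7 footprints and 62.9 and 52.7 in vector footprints, which is 1.43-fold its QKI7 inputs and 2.31-fold its vector inputs (adjusted p = 0.0269 and 0.000244). The QKI7 value missed the threshold without either QKI7 input or either QKI7 footprint library (adjusted p = 0.0564 to 0.181). CDC20 was at 133 and 163 in QKI7 footprints and 184 and 157 in vector footprints, 1.9-fold and 1.43-fold above the inputs (adjusted p = 0.000336 and 0.00928), and the vector value missed it without vector input 2 or vector footprint 1 (0.0647 and 0.0540). KIF2C was 1.52-fold and 1.35-fold above its inputs, which were at 167 and 161 in QKI7 cells and 160 and 147 in vector cells (adjusted p = 0.000284 and 0.00222). CCNB1, whose mean over the 4 footprint libraries was the highest of the 44 genes although KIF2C was above it in both QKI7 libraries, was 1.21-fold above its inputs in QKI7 cells and 1.58-fold in vector cells (adjusted p = 0.0241 and 0.00019), and the QKI7 value missed the threshold without QKI7 input 1, QKI7 input 2 or QKI7 footprint 2 (0.119, 0.0782 and 0.0902).

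CCNB2 and BUB3 were the 2 genes higher in footprints than in inputs in vector cells but not in QKI7 cells. CCNB2 RNA was at 97.0 and 83.9 rescaled TPM in QKI7 inputs and 80.7 and 83.5 in vector inputs, and its footprints stood 1.47-fold above the inputs in vector cells (adjusted p = 0.0059). BUB3 stood 1.33-fold above its inputs there (adjusted p = 0.0349), a call lost without any one input library or vector footprint 1 (0.0508 to 0.176). In QKI7 cells the log2 differences were -0.13 and -0.05, and neither passed (adjusted p = 0.409 and 0.759). The difference between the constructs is the translation efficiency test, which neither gene passed (adjusted p = 0.0591 and 0.192).

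MKI67 and CENPF, the 2 genes with the most RNA, were at the low end in both constructs. MKI67 was at 37.9 and 43.2 rescaled TPM in QKI7 footprints, 24.9-fold below its QKI7 inputs (log2 -4.64 ± 0.10 SE, adjusted p = 2.0e-09), and at 38.6 and 39.9 in vector footprints, 21.2-fold below its vector inputs (adjusted p = 2.43e-09). CENPF was at 67.0 and 69.2 in QKI7 footprints and 60.1 and 58.4 in vector footprints, 12.8-fold and 11.7-fold below its inputs (adjusted p = 2.5e-09 and 2.7e-09). By mean level over 4 libraries, the gene with the most RNA thus ranked 29th of the 44 in footprints, and the one with the second most ranked 21st.

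SMC4 was at 52.4 and 51.9 rescaled TPM in QKI7 footprints and 47.2 and 41.3 in vector footprints, 8.01-fold and 6.85-fold below its inputs. TPX2 was 7.05-fold below its inputs in QKI7 cells and 6.45-fold in vector cells. CKAP5, a microtubule polymerase, was at 33.5 and 36.0 in QKI7 footprints and 37.2 and 41.3 in vector footprints, and at 235 and 232 in QKI7 inputs and 193 and 191 in vector inputs. That placed its footprints 6.57-fold below in QKI7 cells and 4.81-fold below in vector cells. HMMR, a spindle pole protein, was at 27.7 and 40.4 in QKI7 footprints and 24.3 and 27.0 in vector footprints, with inputs of 193 and 194 in QKI7 cells and 182 and 204 in vector cells. Its footprints were 5.65-fold below the inputs in QKI7 cells and 7.28-fold in vector cells, and those of PRC1, with inputs of 312 and 305 in QKI7 cells and 282 and 289 in vector cells, were 5.39-fold and 6.7-fold below.

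By role, the cyclin and anaphase-promoting complex group was mostly on the high side: 4 of 6 were higher in footprints than in inputs in QKI7 cells and 5 of 6 in vector cells, and none was lower (at an unadjusted p under 0.05 limma gave 0 lower as well, compared with 47.8% and 47% of all entries). All 7 tested spindle microtubule-associated genes were lower in QKI7 cells and 6 of 7 in vector cells. Chromosome structure genes were lower in 5 of 5 (4 of 5 without either QKI7 input or QKI7 footprint 2) and in 4 of 5, and both cytokinesis genes were lower in both constructs. Whether one role differs from another was not tested.

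**Figure D4:**
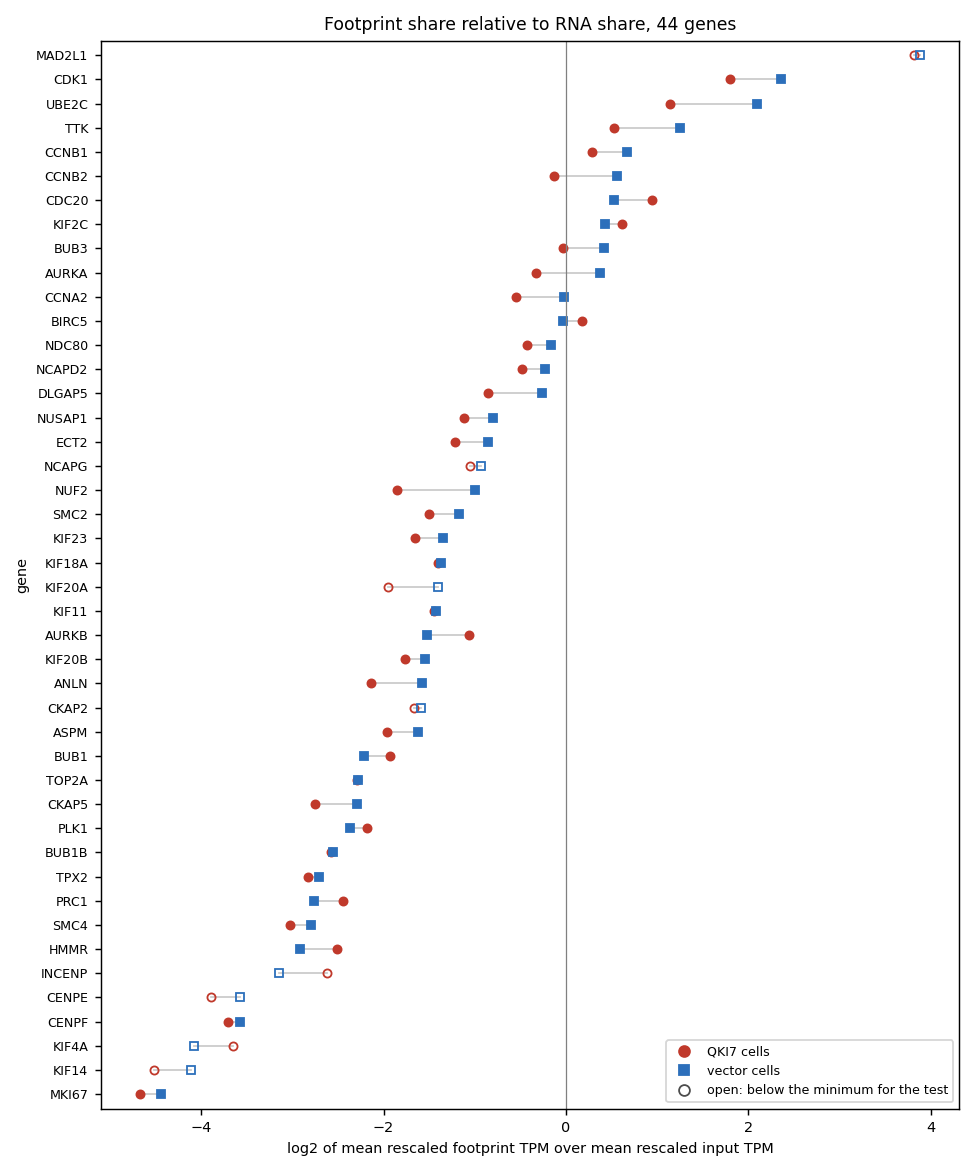
Mean rescaled footprint TPM over mean rescaled input TPM (log2) for each of the 44 genes, from 2 libraries each; circles are QKI7 cells and squares vector cells, open where the gene is below the minimum for the test. The order runs from MAD2L1 and CDK1, high in footprints for their RNA, to MKI67, and UBE2C, NUF2 and TTK show wide gaps between the constructs.

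The 8 genes outside the footprint test are described by their levels. MAD2L1 had 94.7 and 115 rescaled TPM in QKI7 footprints and 114 and 122 in vector footprints, which was 14.1 times its mean input level in QKI7 cells and 14.8 times in vector cells. It was last of the 44 genes by RNA and 12th by footprints. The other 7 averaged under 0.2 deposited TPM in footprints. KIF14 was the lowest, at 5.83 and 5.77 rescaled TPM in QKI7 footprints and 7.15 and 4.27 in vector footprints, a few steps of the 2-decimal values. KIF4A, with abundant RNA, was at 17.5 and 21.6 in QKI7 footprints and 15.7 and 12.8 in vector footprints, and CENPE, KIF20A, INCENP, CKAP2 and NCAPG ranged from 9.96 to 33.5 over the 4 libraries.

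The same comparisons were counted over 98 other genes of mitosis (further kinetochore, cohesin, condensin, anaphase-promoting complex, entry kinase, spindle and transcription factor genes). In input RNA 22 of 82 tested rose and 6 fell, with a median of 0.15, compared with the 11.3% and 10.9% of all entries given above. The largest changes were in UBE2S, the chain-extending enzyme of the anaphase-promoting complex (-0.89, adjusted p = 0.000159), the centromere gene CENPI (0.69, adjusted p = 0.0029) and the checkpoint gene KNTC1 (0.67, adjusted p = 0.000842). In footprints 6 of 38 rose and 6 fell, shares close to or below the 13.7% and 21.1% of all entries, with the largest changes in PKMYT1, an inhibitory kinase of CDK1 (1.58), MYBL2, a transcription factor of mitotic genes (1.25), and CENPH of the inner kinetochore (-1.03). In translation efficiency 3 of 38 rose and 2 fell (8.11% and 3.77% of all entries), and footprints were above inputs for 7 and below them for 24 in QKI7 cells, and above for 11 and below for 22 in vector cells, of 38 (29.2% and 46.7% of all entries in QKI7 cells, 32.2% and 46.2% in vector cells).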

How the data were processed

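The authors deposited 1 table of TPM with 2 decimals for 26902 entries in 8 libraries. STAR, RSEM 1.2.31 and the build GRCh38 are named in the submitters' processing notes, with no settings. TPM keeps no depth, so depth is unknown and no counting interval is given. Groups come from the sample labels. From the deposited TPM, 92 spike-ins, 92 histone genes and 2446 ribosomal and other small non-coding RNAs were removed, and the other 24272 entries were rescaled to 1e+06 in each library. Tests were run in limma 3.58.1 (R 4.3.3) with lmFit and a trended eBayes on log2(value + 1), which understates changes of low values, two-sided, with Benjamini-Hochberg adjustment over all entries tested and a threshold of 0.05.

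Input RNA was fitted on the 4 inputs (mean of at least 1 deposited TPM, 2 residual degrees of freedom), and the other 4 contrasts on all 8 libraries as 4 group means (at least 0.2 deposited TPM in footprints as well, 4 residual degrees of freedom). An exact permutation test of 2 against 2 cannot go below 0.333. Sequences and motif positions come from the RefSeq promoter table. The genes, lists and rules were chosen with earlier results of these data known. All 44 genes could be named, with values in every library for the gene with the most RNA in each role and up to 5 passing genes per direction and contrast, by size, or the 3 largest where none passed, and at most 3 other mitosis genes per contrast. Per-library values of NDC80, UBE2C and ANLN footprints and of the 8 genes outside the footprint test were added after their values were seen. Alternatives changed the scaling, pseudocount, filter, variance trend, libraries in the fit and replicate block.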

Additional observations from a re-analysis of the deposited data

Results flagged for a closer look

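NUF2 was the one gene of the 36 whose footprint-to-input difference was itself different between the constructs in the fit reported. The call was kept in 5 of 8 fits that left out a library, and with a spread of its own for each library type UBE2C passed too (adjusted p = 0.0371). Its footprints lay below its inputs, with log2 differences of -1.84 in QKI7 cells and -0.99 in vector cells, a difference of -0.85 (adjusted p = 0.0194, interaction term in limma). The deposited footprint levels behind it were 0.39 and 0.37 TPM in QKI7 cells and 0.57 and 0.66 TPM in vector cells, as given to 2 decimals. Replicate libraries were not searched for outlying samples, since each group held 2.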

How the results depend on the processing

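The alternative settings, 3 of them chosen after seeing the data (deposited TPM with all 8 libraries for input RNA, QKI and RELN removed before rescaling, a spread for each library type), kept the sign of each passing gene except under deposited TPM, which in the fits of 8 libraries also replaced both minimums by an average of 1 TPM. There TPX2 input RNA turned to 0.026 in both versions, and footprint against input turned negative for CDK1, UBE2C, CDC20, KIF2C and CCNB1 in QKI7 cells (-0.54, -1.08, -1.21, -1.69 and -1.94) and for CDK1, UBE2C, CCNB2, CDC20, CCNB1, KIF2C and BUB3 in vector cells (-0.11, -0.31, -1.25, -1.44, -1.51, -1.59 and -1.68), since that scale is shared with small RNA. Of 28 input calls 13 held without each library in turn and 6 under each other setting; the counts were 2 and 1 of 8 for footprints, 0 and 0 of 1 for translation efficiency, 28 and 24 of 31 for footprint against input in QKI7 cells, and 28 and 23 of 30 in vector cells.

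Input RNA calls over all entries (1728) became 2617 on deposited TPM, 775 without the filter, 1050 without the variance trend, 246 with all 8 libraries, 777 with a spread per library type and 643 to 1281 leaving out 1 library; those of the genes (28) became 18 without the trend, 3 with all 8 libraries and 13 to 26 leaving out 1. Footprint calls over all entries (971) became 476 on deposited TPM, 1616 unfiltered, 525 under the stricter filter (2 TPM in inputs and 0.5 in footprints), 505 in the 4 footprint libraries alone, 426 with a spread per type and 740 to 939 leaving out 1. Those of the genes (8) became 1 on deposited TPM, 5 with quantile normalization, 3 unfiltered, 4 without the trend, 1 in the footprint libraries alone, 2 with a spread per type and 4 to 7 leaving out 1.

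Translation efficiency calls over all entries (331) became 1461 on deposited TPM, 206 unfiltered and 117 to 472 leaving out 1; those of the genes (1) became 25 on deposited TPM, 3 with quantile normalization, 2 at pseudocount 5, 0 unfiltered, 3 under the stricter filter, 2 with a spread per type and 0 to 4 leaving out 1. Footprint against input gave 5703, 12540 and 884 of all entries in QKI7 cells, and 5667, 12873 and 889 in vector cells, on deposited TPM, unfiltered and under the stricter filter, against 2115 and 2186; the stricter filter left 11 and 10 of the genes called, against 31 and 30, as it tests 14 in place of 36, and turned the vector split to 6 higher and 4 lower (median 0.10), against 8 and 22. On deposited TPM most footprint levels of the genes were under the pseudocount of 1, and why more translation efficiency calls were made there was not tested. The footprint calls of the genes (8) also became 11 with median-of-ratios scaling and 11 with QKI and RELN removed. In each of these settings 8 were higher and 3 lower, against 3 and 5. Of all entries 490 and 487 were higher there, and 371 and 362 lower. Causes of these and the other moves were not tested.

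Libraries of the same number did not deviate together (correlations of their deviations from the group means -0.061, 0.018, -0.0091 and -0.057). With 2 libraries per group this cannot tell whether those of the same number came from one culture. With the number as a replicate block, 27 input, 7 footprint and 1 translation efficiency calls of the genes stood, with 31 and 30 for footprint against input in QKI7 and vector cells. The unknown depth and the 2-decimal values limit the genes with few footprints.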

Other observations

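Input RNA of the other mitosis genes is given here by subgroup, to be read beside the 11.3% of all entries that rose, the 10.9% that fell and the 57.2% with a positive change. Of the 13 cohesin and separation genes, which hold and release sister chromatids, 6 rose and none fell, with all 13 log2 changes above 0 and a median of 0.23. Of 22 kinetochore and centromere genes 5 rose and 2 fell, with a median of 0.15. Of the 4 further condensin genes 2 rose, with a median of 0.31, and of 16 spindle and cytokinesis genes 5 rose and 1 fell. The transcription factor genes of the mitotic program gave 2 that rose and 2 that fell, of 8, the entry kinases and phosphatases 1 that rose, of 9, and the anaphase-promoting complex genes 1 and 1, of 10; these last 2 subgroups are near the shares of all entries.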
